A study of Mus musculus with 7 samples.

Results

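Btg2, Pik3ip1, Dbp and Glul are genes tied to low serum or slowed growth in cultured cells. They were followed by 7 probes on 7 two-colour arrays of NIH3T3 cells, an immortalised line of mouse embryonic fibroblasts. The members were all probes of the table whose single annotated symbol was one of these 4 names, which gave 7 of 20355 probes and 4 of 9930 named genes. The cells overexpressed Acid1, and each array set treated fibroblasts against non-treated fibroblasts, at 3 h (4 arrays) or at 10 h (3 arrays) after treatment. The treated cells were in Cy5 on 3 h replicates 1 and 2 and on 10 h replicates 1 and 2, and in Cy3 on 3 h replicates 3 and 4 and on 10 h replicate 3. The labels name neither the treatment nor what Acid1 stands for, nor whether the non-treated cells also carried Acid1, and they do not say that the arrays came from separate cultures. The labels' protocols speak of organs and of a reference pooled from control animals, whereas the source names give fibroblasts in both channels, and the source names were followed.

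Each value is a deposited log2 ratio, read here as treated over non-treated, so a value above 0 is a higher ratio in treated cells. The labels do not state this direction. It was taken because channel 1 is the treated sample on every array whichever dye it carried. The sign of a repeated extreme value described below turned with the dye, which would also hold for non-treated over treated. That inverse reading would turn the sign of every ratio given here. A ratio carries no expression level, so neither the abundance of a gene nor the fibroblast label can be checked; 11 of 14 fibroblast markers had ratios on all 7 arrays. In RNA from a whole culture, a shift in the make-up of the cells and a shift of RNA per cell cannot be told apart.

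The 4 genes act at different points of growth control. Btg2 is an antiproliferative protein of the BTG and Tob family, which binds the CCR4-NOT deadenylase complex and is induced by p53 and by growth signals. Pik3ip1 is a transmembrane protein that binds and restrains PI3 kinase, the kinase upstream of Akt. Dbp is a PAR bZIP transcription factor and a direct output of the circadian clock, which a serum pulse can reset in cultured fibroblasts. Glul, glutamine synthetase, makes glutamine from glutamate and ammonia, and it is among the targets of FOXO factors, which are active when PI3 kinase signalling is low.

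The genes were chosen by ratios of these same arrays at 3 h and 10 h, so their ratios at each time and between the times are given as a description and support nothing. A p-value is given for them only for the dye term, a contrast the choice did not use. They did not move as 1 group. At 3 h, Dbp, both probes of Btg2 and 1 probe of Glul had means below 0, while both probes of Pik3ip1 and the other probe of Glul had means above 0. At 10 h Dbp was above 0 on every array and Btg2 was below 0. Probe 8954 of Pik3ip1 was below 0 on the 2 arrays that measured it. The rest were near 0 or measured on 1 array. The label of growth arrest genes therefore names what the genes are known for, not a shared direction.

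The only motif match in the promoter windows of the 4 genes was in Btg2. Windows of 250 bases before an annotated start were taken from RefSeq (GRCm38.p6), with 1 entry for each gene. For Btg2 and Glul the window ends at the edge of the annotated gene, but for Pik3ip1 it lies inside the annotated gene and for Dbp it runs past the first base of the gene, so for these it is not wholly upstream. The windows were searched on both strands for the FOXO site TGTTTAC, the E-box CACGTG and the partial cyclic AMP response element TGACG. The FOXO site was present in 3.17% and the E-box in 6.02% of all 32851 promoter windows, and neither was found in the 4 genes. TGACG was present in 17.77% of windows, and Btg2 held it on both strands in 1 overlapping stretch that starts 166 bases before the gene start. That share is for TGACG alone, and windows with the whole stretch were not counted. The Btg2 sequence is shown because it is the one window with a match; capitals mark that stretch, at chr1:134079156-134079405 (minus strand):
Btg2 upstream: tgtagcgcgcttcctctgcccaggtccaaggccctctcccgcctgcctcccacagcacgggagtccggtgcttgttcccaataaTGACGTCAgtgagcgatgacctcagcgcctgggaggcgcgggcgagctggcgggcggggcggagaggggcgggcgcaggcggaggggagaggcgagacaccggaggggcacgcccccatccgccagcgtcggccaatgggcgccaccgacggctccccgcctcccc

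A match describes these letters and is not evidence of a bound factor. Probe sequences were not analysed here.

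Dbp, read by probe 18490, was low at 3 h and high at 10 h. With the treated cells in Cy5 its log2 ratio was -2.11 on 3 h replicate 1 and -1.93 on replicate 2, and with the treated cells in Cy3 it was -2.38 on replicate 3 and -0.74 on replicate 4. All 4 arrays were thus below 0 in both dye orientations, with replicate 4 closest to 0. At 10 h it was 0.39 and 0.46 with the treated cells in Cy5 and 0.75 with them in Cy3. The 3 values lay close together and above 0, and the times did not overlap. The mean went from -1.79 ± 0.72 at 3 h (SD, n = 4) to 0.53 ± 0.19 at 10 h (SD, n = 3), a difference of 2.33.

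On its own scale each array placed Dbp in the same way. The value lay at percentile 3.7, 5.2, 3.8 and 21.6 of the measured values at 3 h (replicates 1 to 4) and at percentile 81.7, 80.6 and 81.5 at 10 h (replicates 1 to 3). By its mean, Dbp was number 45 from the lowest of the 7143 probes with 4 values at 3 h. At 10 h its mean lay at percentile 91.7 of the 13170 probes with 3 values. Arrays differed in spread between the times, so the percentile gives the place of a gene and not the size of its ratio.

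**Figure D1:**
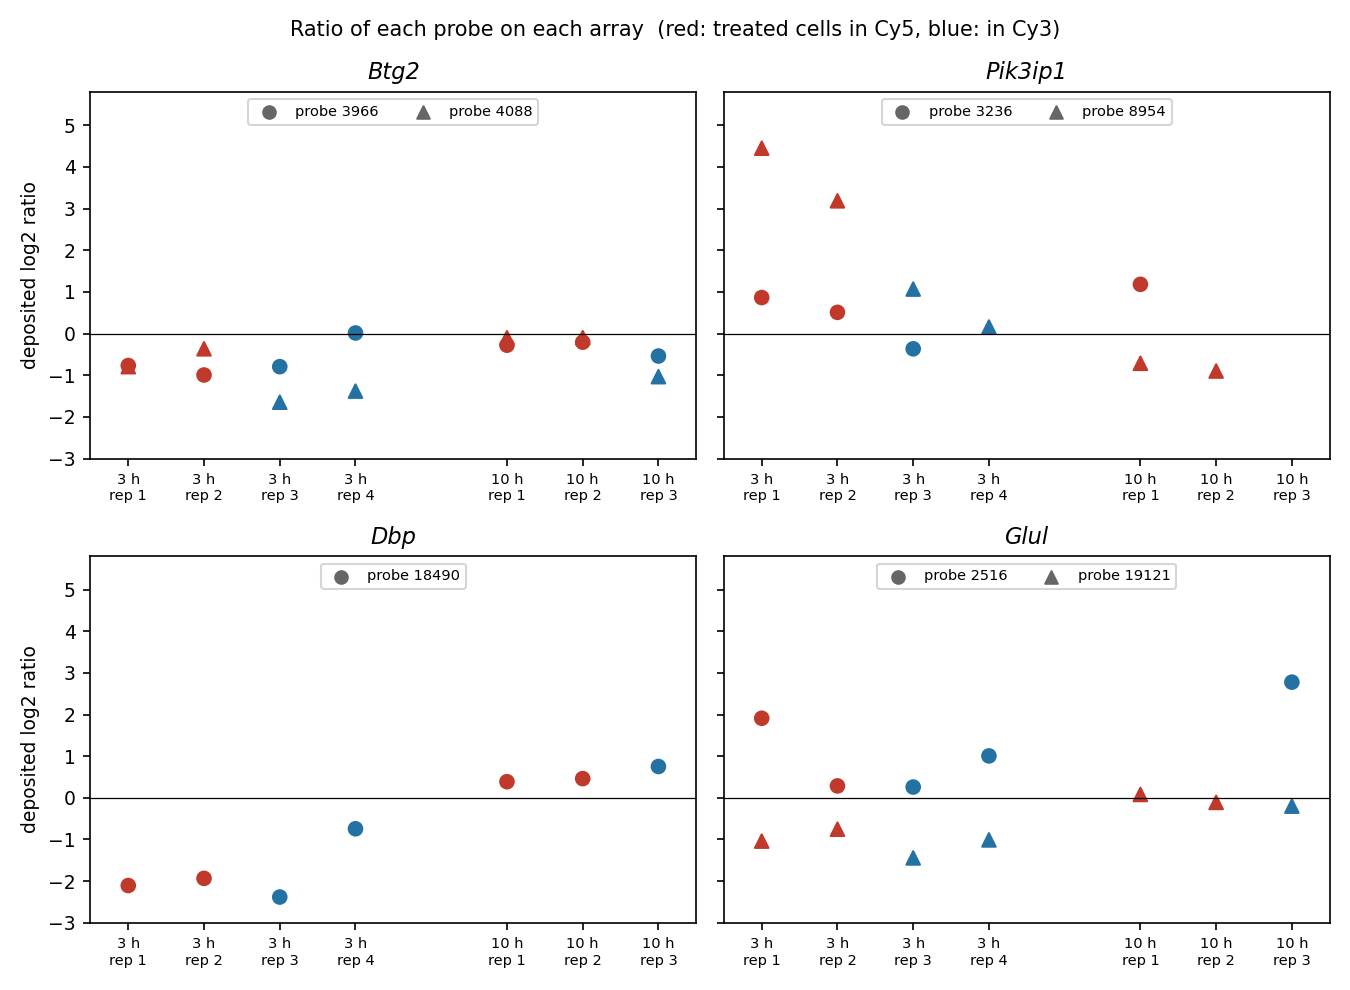
Deposited log2 ratio (vertical axis) of each probe on each of the 7 arrays (horizontal axis), 1 panel per gene, with 1 marker shape per probe and colour for the dye of the treated cells. Dbp lies below 0 on 4 of 4 arrays at 3 h and above 0 on 3 of 3 at 10 h, and the probes of Glul lie on opposite sides of 0 at 3 h.

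Btg2 was mostly below 0 at both times and with both probes. Probe 3966 read -0.77 and -0.995 at 3 h with the treated cells in Cy5 (replicates 1 and 2) and -0.80 and 0.01 with them in Cy3 (replicates 3 and 4). Probe 4088 read -0.80 and -0.37 on the first pair of arrays and -1.65 and -1.38 on the second. So 7 of the 8 values at 3 h were below 0, and the exception was probe 3966 on replicate 4. The means at 3 h were -0.64 ± 0.45 for probe 3966 and -1.05 ± 0.58 for probe 4088 (SD, n = 4 each).

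At 10 h the same gene was closer to 0. Probe 3966 read -0.28 and -0.21 with the treated cells in Cy5 and -0.54 with them in Cy3, a mean of -0.34 ± 0.18 (SD, n = 3). Probe 4088 read -0.10 and -0.10, and -1.04, a mean of -0.41 ± 0.54 (SD, n = 3). All 6 values were below 0, and for both probes the array with the treated cells in Cy3 was the lowest. The ranges at 3 h and 10 h overlapped for both probes.

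Pik3ip1 was the one gene of the 4 with its mean over both probes above 0 at 3 h by more than 1 log2 unit, at 1.25 ± 1.20 (SD, n = 4). Probe 8954 carried this. It read 4.45 on replicate 1 and 3.19 on replicate 2, with the treated cells in Cy5, and 1.07 on replicate 3 and 0.16 on replicate 4, with them in Cy3. Its 3 h mean of 2.22 ± 1.96 (SD, n = 4) was number 2 from the highest of the 7143 probes with 4 values. The values spread over more than 4 log2 units, so the mean describes no single array well.

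At 10 h probe 8954 read -0.71 and -0.90, both with the treated cells in Cy5, and was blank on the array with them in Cy3. The mean was -0.81 ± 0.13 (SD, n = 2), a difference from the 3 h mean over both dyes of -3.02. The fit with a dye term, which carries the 3 h gap between the dyes over to 10 h, put the 10 h value at -2.41 and the difference at -4.63. Both estimates depend on how the missing dye orientation is treated. The percentile of the value went from 99.4 on 3 h replicate 2, and higher on replicate 1, to 20.4 and 17.3 on the 10 h arrays of the same dye. On the 3 h arrays with the treated cells in Cy3 it was 86.2 and 58.6.

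Probe 3236 of Pik3ip1 did not follow probe 8954. It read 0.87 and 0.51 at 3 h with the treated cells in Cy5 and -0.37 on replicate 3, a mean of 0.34 ± 0.63 (SD, n = 3). On 3 h replicate 4 it held the repeated extreme value of that array, -16.09, which is treated as missing. At 10 h it read 1.18 on replicate 1 and was blank on the other two arrays. On that array the 2 probes of the gene were on opposite sides of 0.

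Glul was read with opposite signs by its probes. Probe 19121 read -1.04 and -0.75 at 3 h with the treated cells in Cy5 and -1.44 and -1.01 with them in Cy3, a mean of -1.06 ± 0.29 (SD, n = 4). At 10 h it read 0.08, -0.11 and -0.20, a mean of -0.08 ± 0.14 (SD, n = 3). Every 3 h value lay below every 10 h value. Of the 7 probes this one had the narrowest spread among those with 4 values at 3 h, and its percentiles there were 15.6, 23.8, 12.9 and 15.3.

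Probe 2516 of Glul read 1.91, 0.29, 0.26 and 1.01 on the same 4 arrays, a mean of 0.87 ± 0.78 (SD, n = 4). It was blank on 10 h replicates 1 and 2 and read 2.78 on replicate 3. The mean over both probes at 3 h, -0.10 ± 0.43 (SD, n = 4), is therefore an average of opposite readings.

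**Figure D2:**
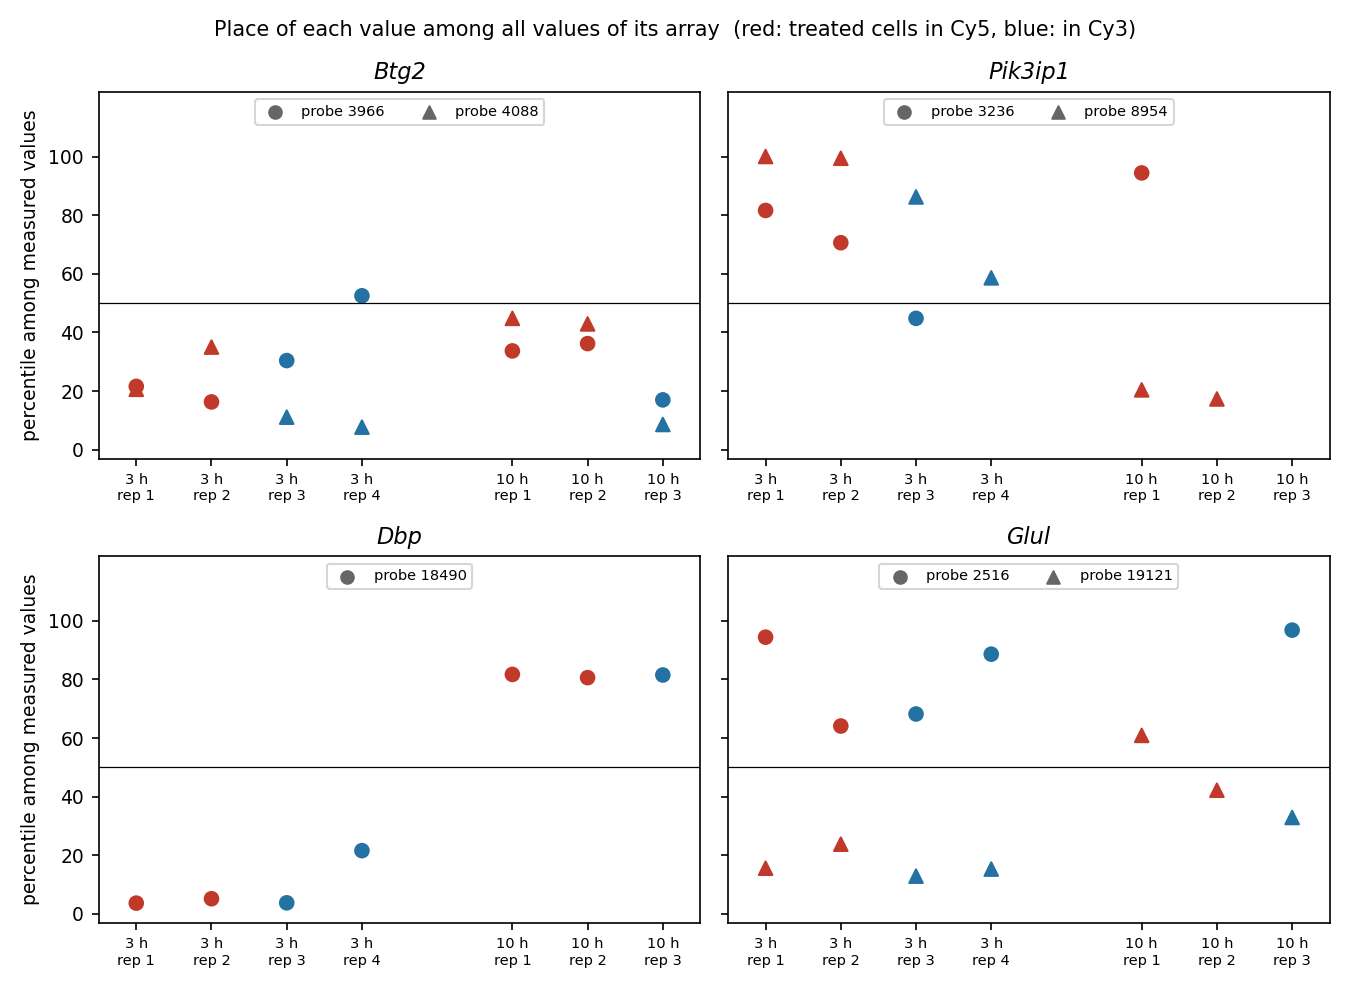
Percentile (vertical axis) of each probe's value among all measured values of its array (horizontal axis), with markers and colours for probe and dye of the treated cells, and a line at the array's median. Dbp lies between 3.7 and 21.6 at 3 h and between 80.6 and 81.7 at 10 h.

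How far probes of 1 gene agreed can be read on the arrays that measured both. The 2 Btg2 probes had the same sign on 6 of 7 arrays. Their largest gap, 1.40 log2 units, was on 3 h replicate 4, and the smallest, 0.03, on 3 h replicate 1. The 2 Pik3ip1 probes had the same sign on 2 of 4 arrays, and probe 3236 minus probe 8954 was -3.58, -2.68 and -1.43 on 3 h replicates 1 to 3. The 2 Glul probes had the same sign on 0 of 5 arrays, with gaps of 1.04 to 2.98. Over all genes with more than 1 probe, pairs of probes had the same sign in 51.6% to 54.8% of cases at 3 h and in 50.3% to 50.7% at 10 h. Probes of 1 gene thus differed in sign nearly as often as they shared it. The median gap of all such pairs was 0.81 to 1.02 log2 units at 3 h and 0.65 to 0.75 at 10 h. Every gap of the Glul and Pik3ip1 probes was above the median gap of its array. For Btg2 this was so only on 3 h replicate 4. The annotation gives both probes of each gene the same transcript accession.

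**Figure D3:**
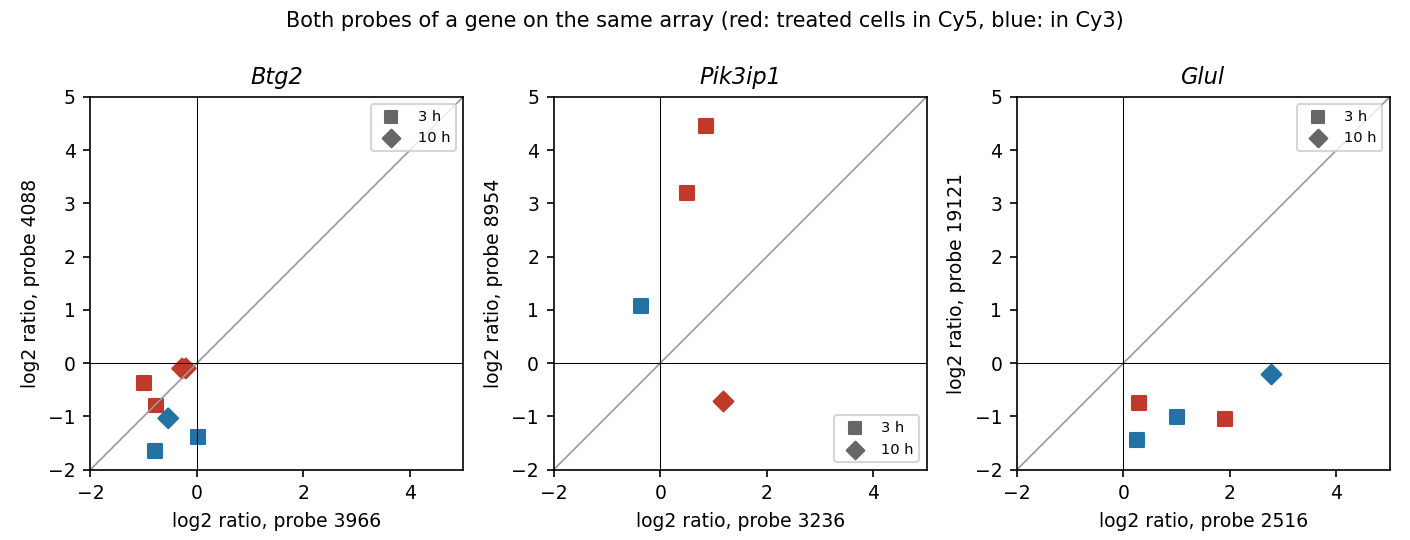
Log2 ratio of 1 probe against that of the other probe of the same gene on the same array, for Btg2, Pik3ip1 and Glul; squares are 3 h, diamonds 10 h, colour is the dye of the treated cells, and the diagonal marks equal values. Btg2 points lie mostly in the lower left, and all 5 Glul points lie in the lower right, where the probes differ in sign.

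The members also differed in how often their values lay at simple ratios. Each array held 1 repeated extreme value, from 16.05 to 17.06 in size where the treated cells were in Cy5 and from -16.71 to -15.98 where they were in Cy3, and its distance from 16.61, the log2 of 100000, gave a constant of the array. With that constant taken off, 56.1% to 63.4% of all values on the 3 h arrays fell on a quotient of integers no larger than 8 (tolerance 0.0015), against 11.9% to 13.1% at 10 h. Among the members, 5 of 27 values at 3 h and 1 of 16 at 10 h were of this kind.

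With whole numbers up to 20, the shares over all values were 74.8% to 79.9% at 3 h and 31.1% to 33.4% at 10 h. Probe 8954 of Pik3ip1 lay at 16 to 1 and 8 to 1 on the 3 h arrays with the treated cells in Cy5, and at 9 to 4 and 7 to 9 on those with them in Cy3. Probe 2516 of Glul lay at 11 to 4, 15 to 14, 9 to 7 and 7 to 5, and probe 3236 of Pik3ip1 at 4 to 3, 5 to 4 and 5 to 6. In all, the 3 probes with a mean above 0 at 3 h had 11 of 11 values at such ratios, and the 4 probes with a mean below 0, those of Btg2 and Dbp and probe 19121 of Glul, had 1 of 16. This split was noticed after the values were seen, and its part in the direction of the ratios was not tested.

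The largest gaps between the dyes at 3 h were those of both probes of Pik3ip1 and of 1 probe of Btg2, and no fitted dye term passed. At 3 h probe 8954 of Pik3ip1 averaged 3.82 with the treated cells in Cy5 and 0.61 with them in Cy3, a gap of 3.21. Probe 4088 of Btg2 averaged -0.58 and -1.52, a gap of 0.93. At 10 h, with 1 array in Cy3, its gap was 0.94 (-0.10 and -1.04). Probe 3236 of Pik3ip1, which had 1 value at 3 h with the treated cells in Cy3, averaged 0.69 and -0.37, a gap of 1.05, and its sign turned with the dye. Probes 8954 and 4088 were 2 of the 6 member probes with 4 values, and for them both arrays with the treated cells in Cy5 were above both of the others, as was so for 20.7% of all 7143 probes. In limma's fit over all probes with Benjamini-Hochberg adjustment, the dye term was 3.21 for probe 8954 (adjusted p = 0.744) and 0.94 for probe 4088 (adjusted p = 0.776). It was -0.41 for Dbp (adjusted p = 0.875), 0.27 for probe 19121 of Glul (adjusted p = 0.887) and -0.18 for probe 3966 of Btg2 (adjusted p = 0.931). No dye term passed for any probe of the table (0%), with 732 of 11559 at an unadjusted p under 0.05.

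Another reading of the deposited values is Cy5 over Cy3. With it the 3 h mean of Dbp would be -0.23 and that of Btg2 0.11, and at 10 h they would be 0.03 and 0.15. The 3 h mean of Pik3ip1 would be 0.999.

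Counts of signs over arrays were as follows, with the share of all probes beside them. Of 6 member probes with 4 values at 3 h, 3 were below 0 on all 4 arrays (14.3% of all 7143 probes) and 2 were above 0 on all 4 (4.19%). Of 4 member probes with 3 values at 10 h, 2 were below 0 on all 3 (14.1% of 13170) and 1 was above 0 on all 3 (14.2%). Of 4 member probes with values on all 7 arrays, 2 had ranges at 3 h and 10 h that did not overlap, Dbp and probe 19121 of Glul (12.5% of 6369), and 1, Dbp, was below 0 on every 3 h array and above 0 on every 10 h array (3.55%). A sign that turned with the dye on all 4 arrays at 3 h was seen for 0 of 6 member probes (13.8% of 7143). Because the genes were chosen by these ratios, nothing is read from the counts.

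**Figure D4:**
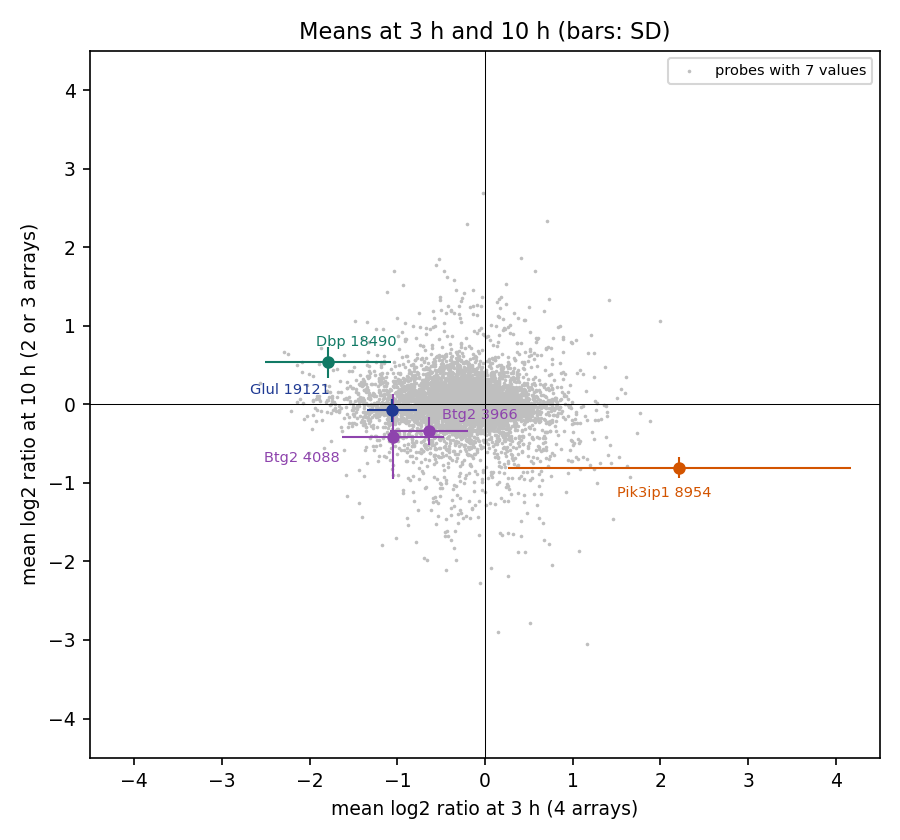
Mean log2 ratio at 3 h (horizontal axis) against that at 10 h (vertical axis) for the 5 member probes with at least 2 values at 10 h, with bars of 1 SD, over the 6369 probes with values on all 7 arrays in grey. Dbp lies at -1.79 and 0.53, and Pik3ip1 probe 8954 at 2.22 and -0.81 with a wide bar at 3 h.

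Across the whole table no single probe passed. Of the 49 possible values of the members, 43 were measured, 5 were blank and 1 was the repeated extreme value. Of the 7 member probes, 5 had the 3 values at 3 h and 2 at 10 h that the fit required; probe 3236 of Pik3ip1 and probe 2516 of Glul did not. In limma with Benjamini-Hochberg adjustment, 0 of 11559 probes (0%) passed at 3 h, at 10 h or for the difference between the times. Before adjustment, the same fit had 1577 probes (13.6%) with p under 0.05 at 3 h and 448 (3.88%) at 10 h. For the difference it had 938 (8.11%). With values at whole-number ratios up to 8 left out, 35 of 4071 probes (0.86%) passed at 3 h. That filter kept ratios of larger whole numbers, such as the 16 to 1 of probe 8954 of Pik3ip1 on replicate 1. The genes were chosen on this 3 h contrast, so members are not counted and nothing is read from it.

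The arrays set limits on all of these values. Arrays of the same time agreed weakly over all probes. Between pairs of 3 h arrays Pearson r was 0.076 to 0.232. At 10 h it was 0.086 for the pair with the same dye, and -0.076 and -0.119 for the pairs of opposite dye. Between 13262 and 15157 spots were measured on the 3 h arrays and between 16395 and 17766 on the 10 h arrays. The scaled median absolute deviation was 0.82 to 1.15 at 3 h and 0.53 to 0.58 at 10 h, so ratios of equal size stand out less at 3 h. The labels give no print, labelling or scan batch, so the time after treatment cannot be told apart from when the arrays were run.

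The genes around the members were taken from fixed lists and described by their counts. In the BTG and Tob family with the CCR4-NOT deadenylase, 0 of 7 measured genes, Btg2 among them, had a mean above 0 at 3 h and 3 of 7 at 10 h, with medians of -0.38 and -0.15. Over all 6869 measured genes, 2856 were above 0 at 3 h and 3218 at 10 h, with medians of -0.10 and -0.02. The 3 h means of the 7 ran from -0.84, that of Btg2 itself, to -0.005. Btg3, a relative of Btg2, was at -0.17 ± 1.29 at 3 h (SD, n = 4), though above 0 on 3 of 4 arrays. At 10 h it was at 1.23 ± 1.603 (SD, n = 3). Cnot4, a ubiquitin ligase linked to CCR4-NOT, was at -0.57 ± 0.62 and 0.05 ± 0.20. In the main limma fit, with whole-number ratios kept and Benjamini-Hochberg adjustment over all probes tested, no member of any list passed at either time.

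In PI3 kinase and Akt signalling, the pathway that Pik3ip1 restrains and a list that holds it, 8 of 17 genes were above 0 at 3 h and 3 of 17 at 10 h, with medians of -0.04 and -0.14. Inppl1, a phosphatase that acts on the lipid product of PI3 kinase, was at 1.22 ± 0.92 at 3 h, above 0 on 4 of 4 arrays, and -0.36 ± 0.58 at 10 h. The adaptor Irs1, which couples insulin receptors to the kinase, was at -0.16 ± 0.26 and -1.23 ± 1.13. Mtor, the growth kinase downstream of Akt, was at 0.37 ± 0.61 and 0.32 ± 0.66.

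Among FOXO factors and growth arrest genes, 8 of 21 were above 0 at 3 h and 9 of 21 at 10 h, with medians of -0.18 and -0.10. Bcl6, a transcriptional repressor, was at -0.71 ± 0.49 and -0.75 ± 1.22. The cyclin-dependent kinase inhibitor Cdkn2c was at -0.86 ± 1.35 and -0.38 ± 0.33, and Gas2, a cytoskeletal protein named for its induction in growth arrest, at -1.03 ± 1.51 and -0.12 ± 0.25. Among cell division genes, 8 of 13 were above 0 at 3 h and 4 of 13 at 10 h, with medians of 0.09 and -0.14. Mcm2 and Mcm4, subunits of the replicative helicase, were at -0.14 ± 0.12 and 0.15 ± 0.19 at 3 h and at -0.18 ± 0.06 and -0.04 ± 0.05 at 10 h, and Cdk4, a kinase of the G1 phase, at -0.21 ± 0.62 and -0.15 ± 0.42.

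The clock genes had means on both sides of 0. Of 12 measured PAR bZIP and clock genes, Dbp among them, 4 were above 0 at each time, with medians of -0.15 and -0.18, and 5 of 12 were higher at 10 h than at 3 h, as were 3823 of all 6869 genes. Tef, the PAR bZIP relative of Dbp, was at -0.73 ± 0.52 at 3 h, below 0 on 4 of 4 arrays, and 0.01 ± 0.18 at 10 h. Csnk1d, the casein kinase that phosphorylates PER proteins, was at -0.35 ± 0.74 and -0.64 ± 1.15. Of 15 genes of glutamine and glutamate metabolism, Glul among them, 10 were above 0 at 3 h and 9 at 10 h, with medians of 0.29 and 0.09. Asparagine synthetase, Asns, was at 0.56 ± 0.47 and 0.34 ± 0.10 and above 0 on 7 of 7 arrays. Gfpt1, which feeds glutamine into hexosamine synthesis, was at 0.49 ± 0.40 and 0.14 ± 0.59, and the transaminase Gpt at -0.45 ± 1.65 and -1.47 ± 1.64.

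**Figure D5:**
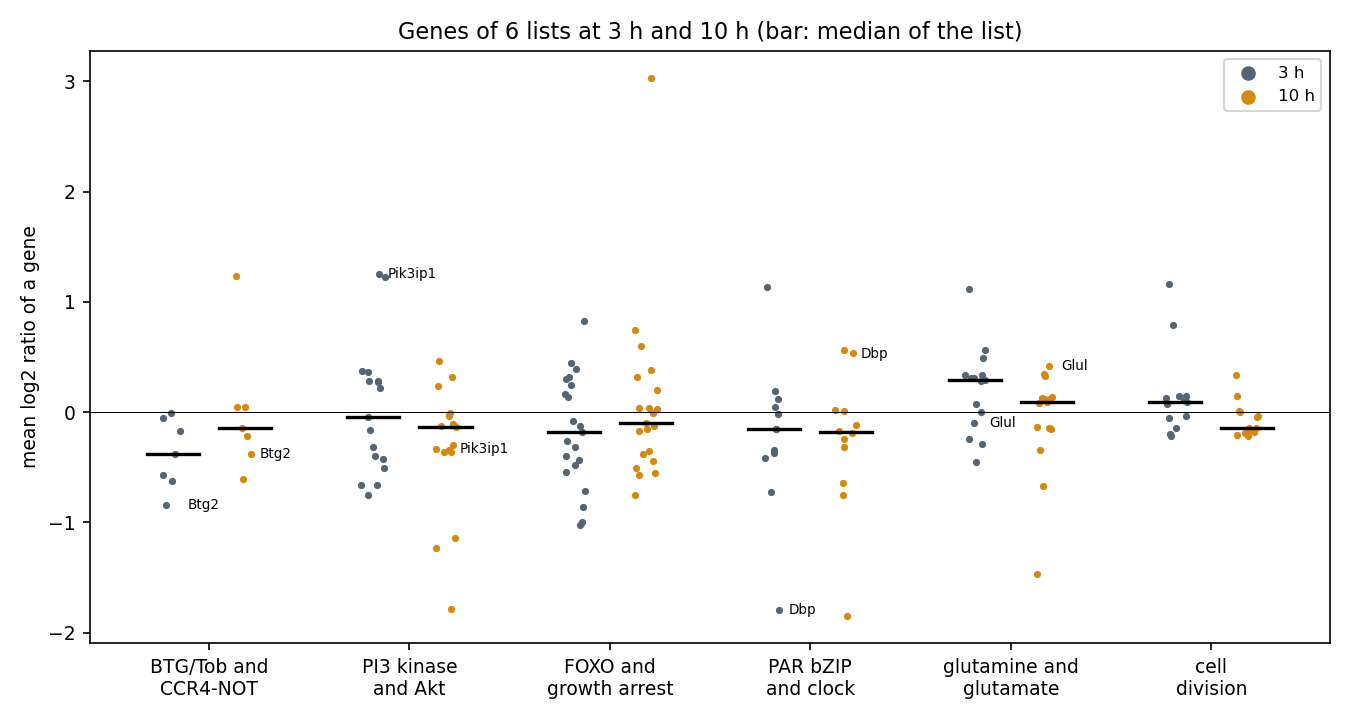
Mean log2 ratio (vertical axis) of each measured gene of 6 lists (horizontal axis) at 3 h in grey and at 10 h in orange; a point is a gene averaged over its probes and arrays, a bar is the median of the list, and the 4 members are named. All 7 genes of the BTG and Tob list have means below 0 at 3 h, some of them close to 0, and Dbp is the lowest gene of the clock list at 3 h.

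The probes whose values ran most like those of the members were found by Pearson correlation over the 7 arrays (6 for Pik3ip1 probe 8954), among 4731 named probes (4844 for Pik3ip1). All points come from the same arrays, so they are descriptions with no test. For Dbp they were Clstn3 (r = 0.996), Apaf1 (0.994) and Atp5j2 (0.990). Apaf1, the scaffold of the apoptosome, went from -1.16 to 0.34. For probe 19121 of Glul they were C2cd3 (r = 0.982), Stx18 (0.978) and Spc24 (0.976). For Btg2 they were Selenok (r = 0.991), Map2k5 (0.990) and Rab6a (0.985) with probe 3966, and Foxk2 (0.967), Snrk (0.958) and Skp2 (0.952) with probe 4088, so the 2 probes of Btg2 had different neighbours. For probe 8954 of Pik3ip1 they were Ech1 (r = 0.970), Kcmf1 (0.966) and Srgap3 (0.963).

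Among the members themselves, Dbp and probe 19121 of Glul ran most alike, at r = 0.891 over 7 arrays. Both were lower at 3 h than at 10 h. The 2 probes of Btg2 correlated at 0.078, although they shared a sign on 6 arrays. Probe 8954 of Pik3ip1 ran against Dbp, at -0.812 over 6 arrays.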

How the data were processed

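The deposited values are log2 ratios, 1 column for each of 7 arrays and 20355 probes; base 2 and a constant per array were read from the values. How the authors corrected the background and normalized is not given in the sources used here. Per the labels' protocols, cDNA from total RNA carried Cy3 or Cy5 through indirect labelling. Values over 15 in size were taken as missing. No centring was added.

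Probes were named from the platform annotation: 14030 had 1 symbol, 5 several and 6320 none, and 0 symbols changed through the RefSeq gene identifiers. Probes with at least 3 values at 3 h and 2 at 10 h were fitted with limma 3.58.1 in R 4.3.3, with a mean per time and a dye term over all 7 arrays, two-sided, Benjamini-Hochberg adjusted, threshold 0.05. Each ratio was tested against 0, so variation among non-treated cultures does not enter; the p-values reflect array-to-array variation, possibly technical. The number of arrays limits the precision. The fit was tested on simulated data.

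Gene means average probes on each array, then arrays. The members and lists were chosen with earlier results of these data known. List genes named are up to 3 per list with the largest absolute mean over 7 arrays; neighbours are the 3 named probes with the highest correlation. Alternatives covered a reading as Cy5 over Cy3, missing values, centring, dye term and separate fits per time. They also covered filters, single probes, replicate block and each array left out.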

Additional observations from a re-analysis of the deposited data

Results flagged for a closer look

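For 2 probes every array at 3 h lay on one side of 0 and every measured array at 10 h on the other. Dbp probe 18490 was below 0 on 4 of 4 arrays at 3 h and above 0 on 3 of 3 at 10 h, a difference of the means, 10 h minus 3 h, of 2.325. Pik3ip1 probe 8954 was above 0 on 4 of 4 arrays at 3 h and below 0 on 2 of 2 at 10 h, a difference of -3.022, and both 10 h values had the treated cells in Cy5; with the dye term of the fit the 10 h value was -2.41 and the difference -4.63. Neither difference was tested on its own, because the genes were chosen by these ratios; of 11559 probes in limma's test of the difference, 0 passed, with 938 at an unadjusted p under 0.05. None of the 6 groups of 4 values at 3 h held a value far from the other values by Dixon's criterion.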

How the results depend on the processing

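With the ratios read as Cy5 over Cy3, the means at 3 h became 0.111 for Btg2 and -0.229 for Dbp, those at 10 h 0.148 for Btg2, 0.032 for Dbp and -0.440 for Glul, and the differences between the times 0.037, 0.261 and -0.638. With the repeated extreme values kept, the Pik3ip1 mean at 3 h was -0.778 and its difference 0.445, and limma called 6 probes at 3 h and 33 for the dye term. With whole-number ratios left out it called 35 at 3 h; fewer probes were tested. Probes taken singly gave, for Pik3ip1, 1.182 at 10 h and a difference of 0.846 (probe 3236) or -3.022 (probe 8954), and for Glul 0.865 and -1.062 at 3 h (probes 2516 and 19121), and 2.777 at 10 h and a difference of 1.912 (probe 2516). Of 182 values under alternatives, the other 162 stayed within 1 SD or 1.5 times of the main value, those with each array left out among them. Leaving out single arrays moved these values by over 1.5 times or turned them, within that limit. Pik3ip1 at 3 h became 0.785 (replicate 1 out), at 10 h -0.900 or 0.234 (replicate 1 or 2 out), and its difference -1.019 (10 h replicate 2 out). Btg2 at 10 h became -0.172 (replicate 3 out). Glul at 3 h became -0.276, -0.053 or 0.066 (replicate 1, 2 or 3 out), at 10 h 0.684 or -0.015 (replicate 2 or 3 out), and its difference 0.783 or 0.083 (10 h replicate 2 or 3 out). The fits of each time alone held a dye term, but its values were not kept. The cause of these shifts was not tested.

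Same-numbered arrays of the times shared a number and the dye of the treated cells, so a match by number is also a match by dye. The labels do not say what the number means. The deviations of same-numbered arrays correlated at 0.028, 0.031 and 0.091. With the replicate block in place of the dye term, 0 of 11559 probes passed at either time or for the difference, with 1348 at 3 h, 482 at 10 h and 943 for the difference at an unadjusted p under 0.05, and the Dbp difference was 2.674; 2 of the 3 arrays at 10 h correlated best with the 3 h array of their own number.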
